A study of Macaca mulatta with 24 samples.

Results

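The genes described here encode the proteins of the cytosolic ribosome, and they were followed in the ileum of rhesus macaques after total body irradiation (TBI). They were chosen by symbol alone: every gene of the deposited normalised table whose full symbol was that of a large-subunit protein (RPL with a number, and RPLP0, RPLP1 and RPLP2) or a small-subunit protein (RPS with a number, and RPSA), with symbols carrying a further suffix left out. Of the 16094 distinct symbols in that table, 54 met the rule, 33 of the large and 21 of the small subunit. RPL5, RPL11, RPS4X, RPS6 and RPS19 were not analysed here. The 54 genes had 178 probes, from 1 probe for 7 genes up to 8 for a single gene, and the brightest probe over all arrays stood for each gene. Each of these 54 probes was well above background on all 24 arrays and none was saturated on any.

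Young-adult male rhesus macaques received TBI from a cobalt-60 source at 6.7 Gy or 7.4 Gy, and whole-wall ileum of each animal was hybridised without pooling to its own one-colour Agilent array. There were 4 animals on day 4 following 6.7-Gy TBI, 4 on day 4 following 7.4-Gy TBI, 4 on day 7 at each dose, and 2 on day 12 at each dose. The 4 unirradiated animals were sham-treated and labelled day 4, and all 6 comparisons with unirradiated ileum share them, so the controls have no day 7 or day 12 counterpart. The treatment label of the samples names 21 days where the titles name day 12, and the titles were followed. The tissue is a mixture of epithelium, lamina propria, lymphoid tissue and muscle, so fewer cells of a type and less RNA per cell cannot be told apart.

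Each cytosolic ribosome is built from ribosomal RNA and a near-fixed set of proteins. The mRNAs of these proteins are among the most abundant of a cell and are known for moving together. Many carry a 5′ terminal oligopyrimidine tract through which mTOR controls their translation. When ribosome assembly is disturbed, free ribosomal proteins can bind the ubiquitin ligase MDM2, and the ileal crypt is a tissue of fast growth with a high demand for ribosomes.

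A level below is the log2 of an array's processed signal minus the log2 of the 75th percentile of that array, and a change is a difference between group means of levels. The arrays lay 4 to a slide on 6 slides, and slides 5 and 6 were scanned on a second day. All unirradiated arrays were in position 1 and scanned on the first day. Both arrays of day 12 following 7.4-Gy TBI were scanned on the second day, so scanning day and group cannot be told apart there. Slide position cannot be told apart from group or scanning day on any day: all arrays of day 4 following 7.4-Gy TBI were in position 2, and in the group of day 4 following 6.7-Gy TBI position 1 held the second-day and position 2 the first-day arrays. The groups of day 4 at both doses and of day 7 following 7.4-Gy TBI each had 2 arrays on either day. In these 3 groups 38 of the 54 genes were lower on the second day every time and 0 were higher every time. The mean difference of second minus first day had a median of -0.25 over the genes, from -0.67 for RPS26 to 0.05 for RPS15, where the median over all 36110 tested probes was -0.02 and that over 330 probes of other genes at a mean level of at least 6.40 was -0.18. The interquartile range of the 54 deviations from the control means was 0.11 to 0.23 on the 16 arrays of the first day and 0.25 to 0.46 on the 8 of the second. Changes are therefore given within scanning days where they depend on them.

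No ribosomal protein gene was altered by the rule of the study, a fold change of at least 2 with an adjusted p under 0.05, in any of the 6 comparisons. The shares of all tested probes altered were 0.978% on day 4 following 6.7-Gy TBI, 2.33% on day 4 following 7.4-Gy TBI, 0.235% and 0.568% on day 7 and 0.108% and 0.0443% on day 12, lower dose first. By the brightest probe of each gene, the largest change of a member was a log2 difference of -0.88, short of 2-fold. The 95% interval of the change lay within 2-fold in either direction for 52 of the 54 genes in all 6 comparisons. The exceptions were RPS26, whose interval reached 1.11 on day 7 and 1.18 on day 12 following 6.7-Gy TBI, and RPS12, whose interval ran from -1.49 to -0.28 on day 12 following 7.4-Gy TBI. At an adjusted p under 0.05 with no limit on the fold change, 1 of 54 genes, RPL22, was higher on day 4 and on day 7 at both doses, and 0 were called on day 12. The shares of all probes called this way, in either direction, were 2.61% and 6.65% on day 4, 0.449% and 0.978% on day 7 and 0.155% and 0.0498% on day 12, again lower dose first. A count of 1 in 54 is a share near or below these on day 4, and rests on a single gene on day 7.

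**Figure D1:**
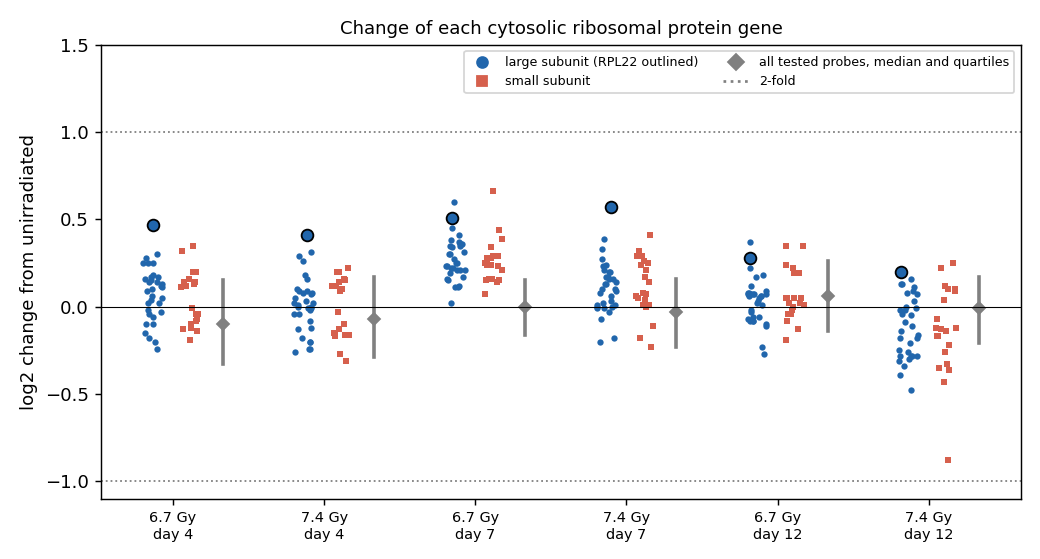
Log2 change against the 4 unirradiated animals of each of the 54 ribosomal protein genes (1 point per gene, brightest probe) in the 6 irradiated groups, with the large and small subunits apart. No point reaches a 2-fold change, the points of day 7 following 6.7-Gy TBI all lie above 0, and the lowest point, at -0.88, is RPS12 on day 12 following 7.4-Gy TBI.

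RPL22 encodes a large-subunit protein that is not needed for translation in general, that has a role in lymphocyte development and that has a close paralogue, RPL22L1. Its levels in the unirradiated ileum were 4.03, 4.29, 4.15 and 3.99. The day 4 levels were 4.54, 4.53, 4.49 and 4.78 at the lower dose and 4.67, 4.36, 4.47 and 4.61 at the higher. The day 7 levels were 4.72, 4.56, 4.61 and 4.60 at the lower dose, with 4.58, 4.68, 4.61 and 4.86 at the higher. All 16 irradiated animals of days 4 and 7 lay above all 4 unirradiated animals. On day 12 the levels were 4.43 and 4.37 after 6.7-Gy TBI, still above every control, and 4.38 and 4.25 after 7.4-Gy TBI, which overlapped the highest control.

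RPL22 rose 1.38-fold on day 4 following 6.7-Gy TBI (log2 change 0.47, SE 0.10, adjusted p = 0.022) and 1.33-fold after 7.4-Gy TBI (0.41, adjusted p = 0.023). On day 7 it rose 1.42-fold after 6.7-Gy TBI (0.51, adjusted p = 0.030) and 1.48-fold after 7.4-Gy TBI (0.57, adjusted p = 0.0072). The group means ± SD were 4.12 ± 0.13 in unirradiated ileum, 4.58 ± 0.13 and 4.53 ± 0.14 on day 4 and 4.62 ± 0.07 and 4.68 ± 0.12 on day 7 (n = 4 each). The changes of 0.28 and 0.20 on day 12 did not pass the test (adjusted p = 0.53 and 0.76), and the differences of -0.23 (adjusted p = 0.52) and -0.37 (adjusted p = 0.46) from day 7 to day 12 did not either, although the animals of day 12 lay below those of day 7 at both doses. Scanning day made little difference to this gene: on first-day arrays alone the changes were 0.52, 0.40, 0.51 and 0.62 in the order above, and the second-day arrays of the groups that had them were 0.42, 0.43 and 0.52 above the controls. With scanning day as a covariate the adjusted p was 0.036, 0.034, 0.036 and 0.019. With the 16 first-day arrays alone it was 0.091, 0.17, 0.12 and 0.13.

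The call for RPL22 was steady in direction but close to the threshold. On day 4 following 6.7-Gy TBI it was lost without unirradiated animal 1 (0.44, adjusted p = 0.063), without unirradiated animal 4 (0.43, adjusted p = 0.054) and without irradiated animal 4 (0.40, adjusted p = 0.063). On day 4 following 7.4-Gy TBI it was lost without unirradiated animal 1 (adjusted p = 0.072) or 4 (0.052) and without irradiated animal 1 (0.089) or 4 (0.059). On day 7 following 6.7-Gy TBI it was kept only when unirradiated animal 2 was left out, with an adjusted p between 0.053 and 0.11 in the other 7 cases. On day 7 following 7.4-Gy TBI it was kept whichever of the 8 animals was left out.

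RPL22 had 5 probes, and a second one gave the same calls. That probe rose by 0.61, 0.50, 0.66 and 0.77 on the log2 scale on day 4 and day 7, lower dose first each day, with adjusted p = 0.026, 0.034, 0.034 and 0.0059. Its levels were 3.66, 3.84, 3.55 and 3.19 in the unirradiated ileum against 4.20, 4.19, 4.35 and 4.60 on day 7 following 7.4-Gy TBI, without overlap. The other 3 probes were higher than in the controls in these 4 comparisons, by 0.04 to 1.55, and did not pass the test. One of them was over 2-fold higher in all 4, by 1.09, 1.30, 1.33 and 1.55, with an SE of 0.52 and animals that overlapped the controls.

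**Figure D2:**
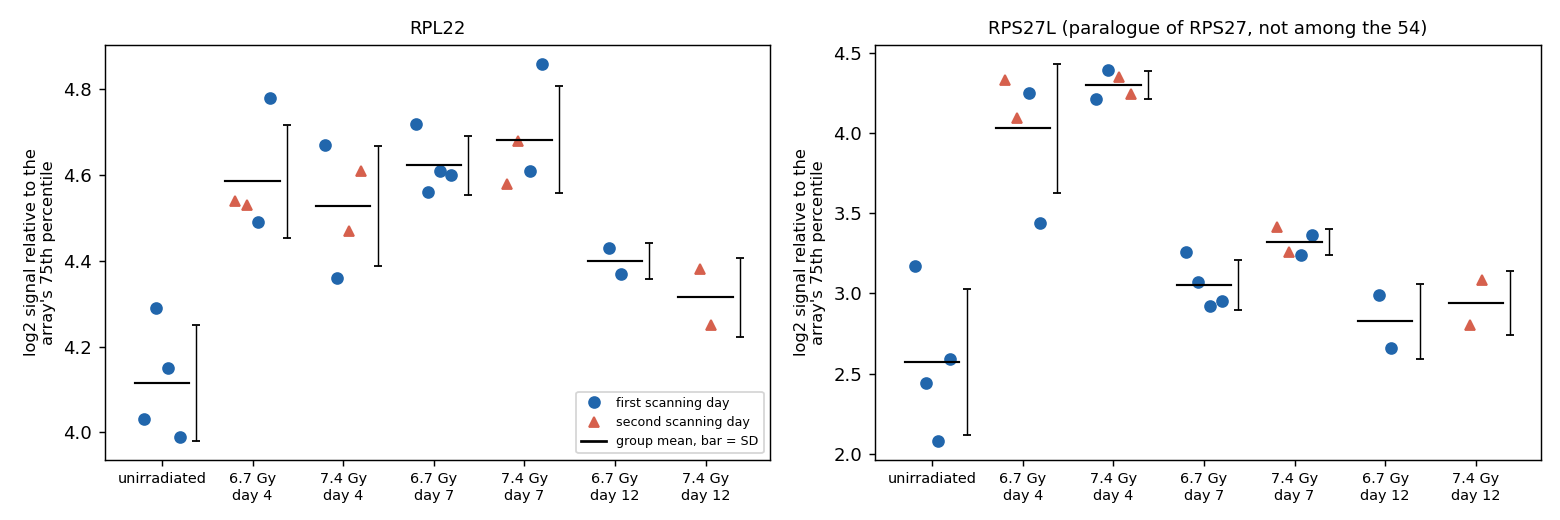
Levels (log2 of signal over the 75th percentile of the array) of RPL22 and of RPS27L, a paralogue outside the 54 genes, in each animal of the 7 groups; circles were scanned on the first day and triangles on the second, lines are group means and bars SD. All 16 animals of days 4 and 7 lie above the 4 unirradiated animals for RPL22, and all 8 of day 4 do for RPS27L.

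On day 4 the other ribosomal protein genes stayed close to the controls. The median change over the 54 genes was 0.10 after 6.7-Gy TBI, from -0.24 for RPL23A to 0.47 for RPL22, with 33 higher, and the median over all tested probes was -0.10. After 7.4-Gy TBI it was 0.00, from -0.31 for RPS26 to 0.41 for RPL22, with 27 higher, against -0.07 over all probes. Without unirradiated animal 1 these medians were 0.03 with 30 higher and -0.05 with 20 higher. At an unadjusted limma p under 0.05, 4 genes were higher at the lower dose (RPL12, RPL22, RPS16 and RPS2) against 9.13% of all probes, and 2 at the higher dose (RPL12 and RPL22) against 11% of all probes. In both groups RPL22 alone had every irradiated animal above every control, a property of 4.1% of all probes at 6.7 Gy and 7.84% at 7.4 Gy.

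Within scanning days the lower dose looked different. The 2 first-day arrays of day 4 following 6.7-Gy TBI were averaged, and so were the 2 second-day arrays. The first-day mean was above the control mean for 53 of 54 genes (median 0.28) and the second-day mean for 14 (median -0.10). Taken singly, the first-day arrays were above it for 46 and 54 genes and the second-day arrays for 22 and 13. At 7.4 Gy the first-day mean had 38 genes higher (0.06) and the second-day mean 20 (-0.05). The median of the 54 deviations was -0.07, -0.18, 0.15 and 0.42 in the 4 animals of day 4 following 6.7-Gy TBI and 0.14, 0.01, 0.00 and -0.11 after 7.4-Gy TBI. In the unirradiated animals it was -0.20, 0.04, 0.09 and 0.06. Animal 4 of the lower dose was the highest of all 24, and without it the median change of that group was 0.00. It was also the extreme of all 24 in 3 marker lists, with median deviations from the control means of -2.14 for enterocyte markers, -1.26 for goblet and Paneth cell markers and 1.36 for crypt proliferation markers, and their part in its levels was not tested. Scaling mattered as well: with quantile normalisation 51 and 44 genes were higher on day 4, with medians of 0.17 and 0.15.

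**Figure D3:**
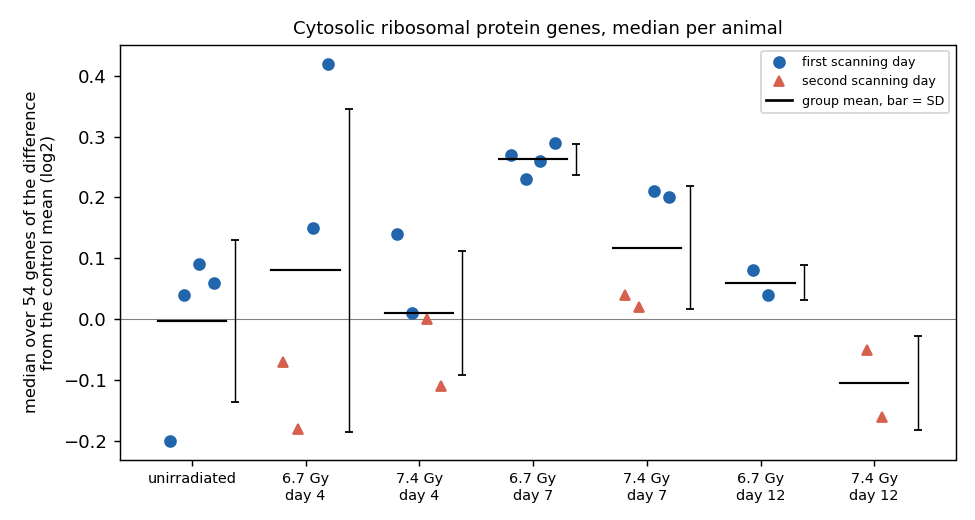
Median, over the 54 ribosomal protein genes, of the deviation from the mean of the 4 unirradiated animals on the log2 scale, 1 point per animal in 7 groups; circles were scanned on the first day and triangles on the second, lines are group means and bars SD. The 4 animals of day 7 following 6.7-Gy TBI lie between 0.23 and 0.29, above all 4 unirradiated animals, and second-day arrays lie low within every group that has both.

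On day 7 following 6.7-Gy TBI all 54 genes were higher in mean on the main scale, by a median of 0.25 and from 0.02 for RPL35A to 0.66 for RPS2, while the median over all tested probes was 0.00. The median deviations of the 4 animals were 0.27, 0.23, 0.26 and 0.29, above those of all 4 unirradiated animals. At an unadjusted p under 0.05, 21 of the 54 were higher against 4.57% of all probes. In 29 of the 54 every irradiated animal lay above every control, 5 of them (RPL29, RPL31, RPS12, RPS23 and RPS29) by no more than 0.01, against 4.47% of all probes. After adjustment over all probes only RPL22 passed. The 54 values of an array share its RNA and scaling, so these counts are not 54 separate results.

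The size of this difference depended on the controls and on the scaling, and so did its place among the groups. Unirradiated animal 1 was the lowest control, and without it the median change was 0.19. With quantile normalisation it was 0.16 with 52 genes higher, where day 4 following 6.7-Gy TBI had 51 higher at 0.17 and day 7 following 7.4-Gy TBI 48 at 0.17. With each array centred on its median it was 0.28 with 54 higher, and with background re-estimated by normexp 53 were higher. All arrays of this group and of the controls were scanned on the first day. On each of slides 1 to 4, which hold 1 array of either group, the median over the genes was higher in the irradiated animal, by 0.45, 0.21, 0.20 and 0.17. The irradiated array was in position 3 and the control in position 1 on each slide. The median change of the 330 bright probes of other genes was 0.07 here, against 0.25 for the 40 ribosomal protein genes as bright.

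RPS2, a small-subunit protein near the entry of the mRNA channel, and RPL24, a large-subunit protein at the bridge between the subunits, had the largest changes on day 7 following 6.7-Gy TBI. The levels of RPS2 were 5.70, 6.06, 6.37 and 6.23 in unirradiated ileum and 6.55, 6.93, 6.89 and 6.64 in irradiated ileum, without overlap. The change was 0.66 (SE 0.16, 95% interval 0.34 to 0.99), which missed the threshold after adjustment (adjusted p = 0.067). RPL24 was at 6.70, 6.87, 6.97 and 6.07 in the controls and at 7.31, 7.20, 7.32 and 7.19 after irradiation. The 4 irradiated animals were close together above all controls, and unirradiated animal 4 stood low. The change of 0.60 had an adjusted p of 0.14, and without that control no ribosomal protein gene was called in this comparison. RPLP0, which anchors the stalk, was at 6.90, 7.15, 7.17 and 7.07 in the controls and at 7.41, 7.45, 7.58 and 7.49 after irradiation, again without overlap (0.41, adjusted p = 0.29).

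**Figure D4:**
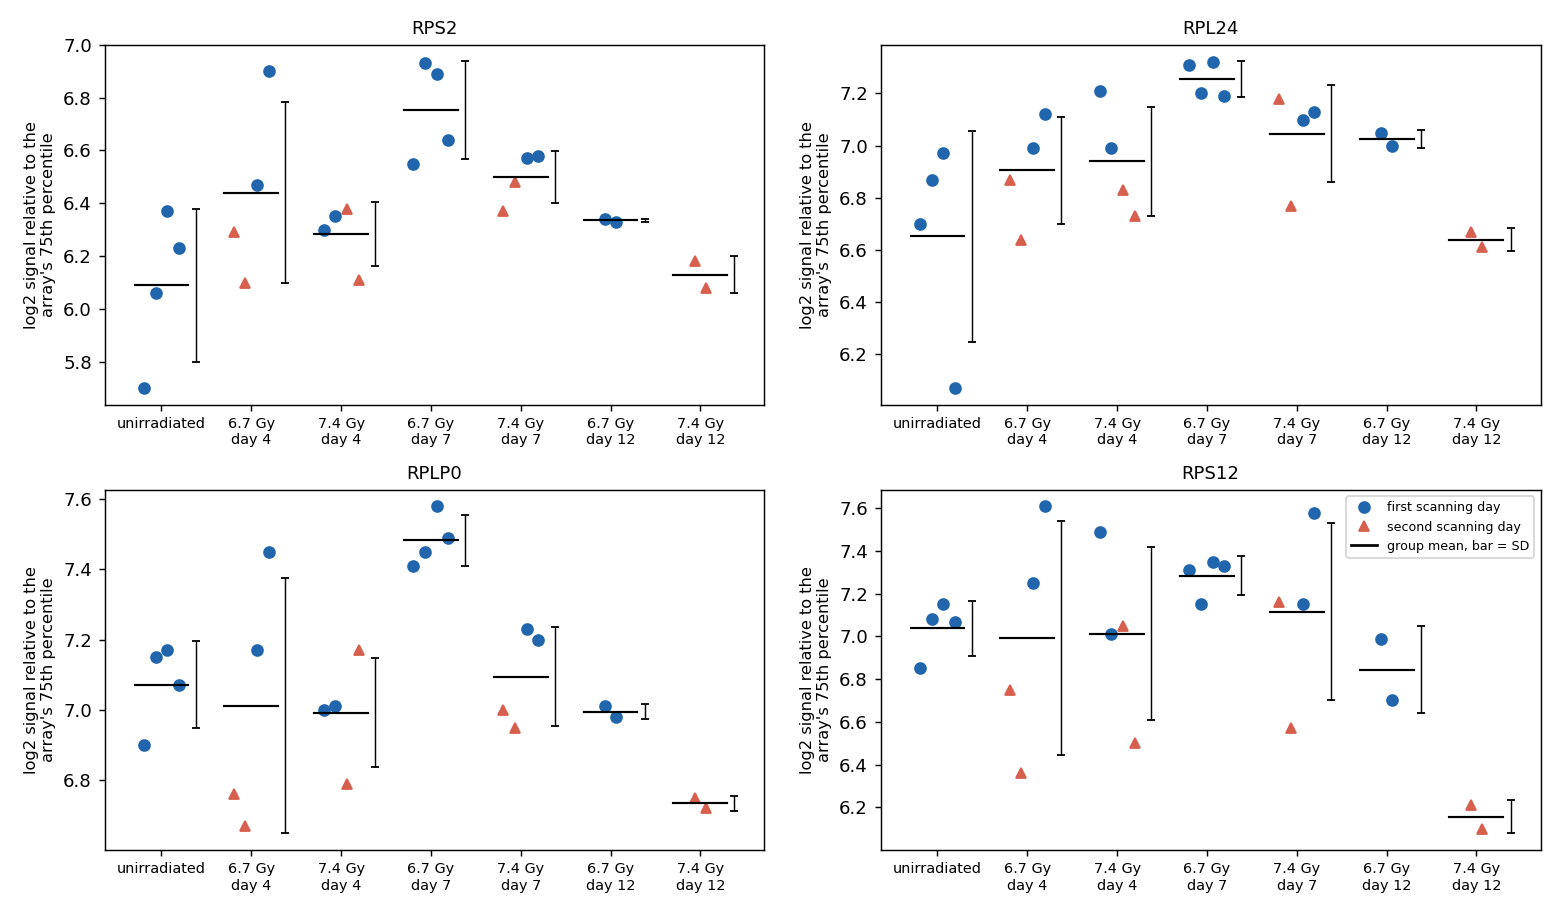
Levels (log2 of signal over the 75th percentile of the array) of RPS2, RPL24, RPLP0 and RPS12 in each animal of the 7 groups; circles were scanned on the first day and triangles on the second, lines are group means and bars SD. RPS2, RPL24 and RPLP0 are above all controls on day 7 following 6.7-Gy TBI, and RPS12 is lowest in the 2 animals of day 12 following 7.4-Gy TBI, at 6.21 and 6.10.

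On day 7 following 7.4-Gy TBI 44 of the 54 genes were higher, with a median change of 0.10 against -0.03 over all probes. Without unirradiated animal 1 the median was 0.04 with 34 higher, and without irradiated animal 2 it was 0.16 with 49 higher. The changes ran from -0.23 for RPS21 to 0.57 for RPL22. At an unadjusted p under 0.05, 7 genes were higher (RPL22, RPL24, RPL39, RPS13, RPS2, RPS28 and RPS9) against 5.86% of all probes, and 7 genes had every irradiated animal above every control, 2 of them by no more than 0.01, against 3.72% of all probes. The mean of the first-day arrays had a median of 0.21 with 49 genes higher, and that of the second-day arrays 0.02 with 30 higher. With scanning day as a covariate the median of this group was 0.24 with 52 genes higher, and that of day 7 following 6.7-Gy TBI stayed at 0.25. RPS2 was at 6.37, 6.48, 6.57 and 6.58, touching the highest control without passing below it (0.41, adjusted p = 0.25).

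On day 12 no gene was called. After 6.7-Gy TBI 35 genes were higher, with a median of 0.05 against 0.06 over all probes, and 2 had an unadjusted p under 0.05, RPL22 and RPS28 (0.35, adjusted p = 0.46), where 5.27% of all probes were higher at that p. With each array centred on its median the sign of the group turned, with 21 genes higher and a median of -0.02, and so it did without unirradiated animal 1, with 22 higher and a median of -0.03. After 7.4-Gy TBI 37 genes were lower, with a median of -0.13 against -0.01 over all probes. Without animal 2 of this group the median was -0.05. There 2 genes had an unadjusted p under 0.05 and were lower, RPL26 and RPS12, against 4.84% of all probes. In 15 of the 54 both irradiated animals lay below all controls, 1 of them (RPS23) by no more than 0.01, against 9.38% of all probes. The 330 bright probes of other genes had a median of -0.17 here, and the 40 ribosomal protein genes as bright -0.16. Both animals were scanned on the second day, with quantile normalisation 30 genes were higher (median 0.01), and with scanning day as a covariate the median was 0.13.

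RPS12, a small-subunit protein of the beak region, had the lowest change of any member. Its levels were 6.85, 7.08, 7.15 and 7.07 in unirradiated ileum and 6.21 and 6.10 on day 12 following 7.4-Gy TBI, both below every control. The change of -0.88 (SE 0.29) did not pass the test (adjusted p = 0.34). RPS12 was also lower on second-day arrays in each group that had both, by 0.87, 0.47 and 0.50, and with scanning day as a covariate the change was -0.26. RPL26, a large-subunit protein near the exit tunnel, was at 6.46, 6.77, 6.78 and 6.83 in the controls and at 6.19 and 6.27 in these 2 animals (-0.48, adjusted p = 0.48), a change of -0.05 with the covariate. RPS24 went from -0.43 (adjusted p = 0.69) to 0.12 in the same way.

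The doses and the days were compared directly in the same fit, and no ribosomal protein gene was called in any of the 9 contrasts. Between the doses, 0% of all probes were called on day 4, 0% on day 7 and 0.00277% on day 12. From day 4 to day 7 the shares were 1.03% at 6.7 Gy and 3.79% at 7.4 Gy, from day 4 to day 12 they were 7.45% and 3.35%, and from day 7 to day 12 they were 0.0471% and 0.00831%. On day 7 the 54 genes were lower at 7.4 Gy than at 6.7 Gy by a median of 0.17 in size, with 46 lower, 6 of them at an unadjusted p under 0.05 against 2.2% of all probes. With scanning day as a covariate that median was -0.02 and with first-day arrays alone -0.06. On day 4 42 were lower at 7.4 Gy (median -0.05), and with first-day arrays alone 51 (-0.18). On day 12 39 were lower (-0.17), and with scanning day as a covariate 15 (0.07). From day 4 to day 7 at 6.7 Gy 50 were higher (median 0.20), 12 of them at an unadjusted p under 0.05 against 12.4% of all probes. With scanning day as a covariate 40 were higher (0.07), 3 of them at that p, and with first-day arrays alone 22 were higher (-0.01), with 0 at that p. The first-day arrays of day 4 were those of animals 3 and 4, with medians of 0.15 and 0.42, and the animals of day 7 lay between them. At 7.4 Gy 43 were higher from day 4 to day 7 (0.13), with 43 (0.13) and 43 (0.14) in the same settings. In the contrast of day 7 with day 4 at 6.7 Gy RPLP0 had the smallest adjusted p. Its levels there were 6.76, 6.67, 7.17 and 7.45 on day 4, and the difference was 0.47 (SE 0.14, adjusted p = 0.10). From day 7 to day 12 at 6.7 Gy 53 of 54 were lower (median -0.23), 8 of them at an unadjusted p under 0.05 against 4.49% of all probes, and all arrays of both groups were scanned on the first day. At 7.4 Gy 47 were lower (-0.23), 11 of them at that p against 3.81% of all probes, and with scanning day as a covariate 43 (-0.13) and 3. So the higher position of these genes on day 7 following 6.7-Gy TBI was not shown to differ from the other groups gene by gene.

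Set apart by role, the genes gave the following counts. On day 4 following 6.7-Gy TBI 23 of 33 large-subunit and 10 of 21 small-subunit genes were higher, with medians of 0.10 and -0.01. This depended on scanning day. The 2 first-day animals had medians of 0.14 and 0.42 for the large and 0.19 and 0.40 for the small subunit. The 2 second-day animals had -0.04 and -0.17 for the large and -0.09 and -0.47 for the small. On day 7 following 6.7-Gy TBI all 33 and all 21 were higher. On day 12 following 7.4-Gy TBI 10 and 7 were higher, and with scanning day as a covariate 47 of all 54. The acidic stalk proteins, which recruit elongation factors, had changes of unequal size. RPLP0, RPLP1 and RPLP2 had changes of 0.41, 0.11 and 0.23 on day 7 following 6.7-Gy TBI and of -0.06, -0.15 and -0.20 on day 4 following 6.7-Gy TBI, none past the test. These day 4 changes were 0.08, 0.04 and -0.04 with scanning day as a covariate, and 0.24, 0.27 and 0.04 on first-day arrays. RPLP1 was at 7.54, 7.71, 7.69 and 7.41 in the controls and RPLP2 at 7.21, 7.46, 7.41 and 7.48, and on day 4 following 6.7-Gy TBI their second-day arrays were lowest, at 6.98 and 7.04 for RPLP1 and 7.07 and 6.85 for RPLP2.

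Among the genes of the catalytic core and the exit tunnel, RPL3, which lines the peptidyl transferase centre, had changes of 0.17 and 0.26 on day 4, 0.45 (adjusted p = 0.33) and 0.27 on day 7 and 0.07 at both doses on day 12. RPL10, which completes the large subunit late in its assembly, ranged from -0.10 to 0.21 over the 6 comparisons. RPL13A, a protein released in the interferon response, ranged from -0.12 to 0.23. RPL23, a binder of MDM2, was 0.25 higher on day 4 following 6.7-Gy TBI (adjusted p = 0.27) and 0.01 lower after 7.4-Gy TBI. With scanning day as a covariate its changes were 0.34 and 0.09, and on first-day arrays 0.44 and 0.00. None of RPL3, RPL10, RPL13A and RPL23 passed the test in any comparison on the main scale.

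Of the small subunit, RPSA, also known as the laminin receptor, was at 6.94, 7.13, 7.28 and 7.26 in the controls and at 7.61, 7.53, 7.48 and 7.54 on day 7 following 6.7-Gy TBI, without overlap (0.39, adjusted p = 0.38). RPS3, which also acts in base excision repair of DNA, had a change of 0.24 there (adjusted p = 0.72) and -0.11 on day 7 following 7.4-Gy TBI. The latter was 0.06 with scanning day as a covariate and -0.09 on first-day arrays, and another RPS3 probe was at 0.34. RPS27A, made as a fusion with ubiquitin, had a change of 0.07 on day 7 following 6.7-Gy TBI, where animal 2 stood low at 6.22 against 6.87, 6.90 and 6.82 in the others. RPS26 varied most between animals of a group, with a pooled SD of 0.49, and its level in animal 2 of day 7 following 7.4-Gy TBI was 5.79 against 7.14, 7.87 and 7.66 in the others.

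The remaining probes of these genes were examined in the same fit. There were 122 other tested probes for 47 of the genes, and their median changes were 0.15 and 0.08 on day 4, 0.29 and 0.14 on day 7 and 0.03 and -0.02 on day 12. On day 7 following 6.7-Gy TBI 120 of the 122 were higher. Besides the second RPL22 probe, the test called 1 of them, a probe of RPL12 that was 0.76 higher on day 4 following 7.4-Gy TBI (adjusted p = 0.023), where the brightest RPL12 probe was 0.31 higher (adjusted p = 0.14). Of the 122, 97 and 83 had the sign of the brightest probe on day 4, 120 and 90 on day 7 and 63 and 81 on day 12. The largest gaps between probes of opposite sign were on day 12 following 7.4-Gy TBI. There another probe of RPS24 was at 0.37 against -0.43 for the brightest, and 1 of RPLP0 at 0.42 against -0.34. RPL12, RPL7A and RPL15 came next by the size of the gap, and further genes also had probes of opposite sign. Ribosomal protein genes have many processed pseudogenes and near-identical copies, so a probe may bind more than 1 transcript.

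The levels varied little between animals and largely together. The pooled SD within groups had a median of 0.19 over the 54 genes, from 0.12 for RPL22 to 0.49 for RPS26, against 0.29 over all tested probes. Over the 24 arrays, the residual of a gene from its group mean had a median correlation of 0.74 with the median residual of the other members, from -0.03 for RPL21 to 0.91, and 46 of the 54 exceeded 0.5. These points share an array, its scaling and its scanning day. RPL22 was among the less shared, with a correlation of 0.44.

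Among paralogues left out by the rule, some rose past the test on day 4. RPS27L, which resembles RPS27, was at 3.17, 2.44, 2.08 and 2.59 in unirradiated ileum, at 4.33, 4.09, 4.25 and 3.44 on day 4 following 6.7-Gy TBI and at 4.21, 4.39, 4.35 and 4.24 on day 4 following 7.4-Gy TBI. All 8 irradiated animals lay above all controls. It rose by 1.46 (SE 0.19, adjusted p = 0.0004) and 1.73 (adjusted p = 3.8e-05) and passed the test whichever animal was left out, while on first-day arrays alone the adjusted p was 0.061 and 0.011. On day 7 the changes of 0.48 and 0.74 did not pass (adjusted p = 0.42 and 0.075), and from day 4 to day 7 it fell by 0.98 at both doses (adjusted p = 0.025 and 0.0096). RPL26L1, a paralogue of RPL26, rose by 1.11 on day 4 following 6.7-Gy TBI (adjusted p = 0.042; 0.054 with scanning day as a covariate, change 1.21), a call that was kept only without unirradiated animal 1 or irradiated animal 2 and lost without any of the other 6 animals (adjusted p 0.057 to 0.11, lowest change 0.75 without unirradiated animal 4). On first-day arrays alone its adjusted p was 0.092. It had a change of 0.86 after 7.4-Gy TBI (adjusted p = 0.072), which became 0.50 without unirradiated animal 4 (adjusted p = 0.18) and 1.1, past the test, without unirradiated animal 1 (adjusted p = 0.041). Of the 5 paralogues tested, 2 rose at the lower and 1 at the higher dose on day 4, against 2.61% and 6.65% of all probes called in either direction.

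Genes that control ribosome supply were tested in 22 of 29 cases listed, and on day 4 1 rose after 6.7-Gy TBI and 2 after 7.4-Gy TBI, shares near the 2.61% and 6.65% of all probes. MYC, which drives transcription of ribosomal genes, rose by 1.05 (adjusted p = 0.021) and 1.01 (adjusted p = 0.015), and its call at 6.7 Gy was lost without irradiated animal 4 (0.79, adjusted p = 0.054) or unirradiated animal 2 (0.88, adjusted p = 0.06), and at 7.4 Gy it reached only the threshold without irradiated animal 3 (0.88, adjusted p = 0.05). SESN1, which restrains mTOR, rose by 0.81 after 7.4-Gy TBI (adjusted p = 0.008). On first-day arrays alone MYC had adjusted p = 0.075 and 0.15, and SESN1 0.05 at 7.4 Gy. CDKN1A, which halts the cell cycle, had changes of 0.68 and 0.54 on day 4 that did not pass (adjusted p = 0.11 and 0.17), and MDM2 had changes of 0.11 and 0.31.

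The factors that assemble ribosomes lay above the controls on day 4. Of 79 listed biogenesis genes 57 were tested, and on day 4 55 were higher after 6.7-Gy TBI and 52 after 7.4-Gy TBI, with medians of 0.53 and 0.48, where the 54 ribosomal protein genes had 0.10 and 0.00 and all probes -0.10 and -0.07. The medians of the 4 animals were 0.35, 0.33, 0.24 and 1.13 at the lower dose and 0.55, 0.25, 0.67 and 0.33 at the higher, and without animal 4 the lower dose had 49 higher with a median of 0.32. The test called 5 and 6 of them, all higher, against 2.61% and 6.65% of all probes in either direction. At 6.7 Gy 1 was called without irradiated animal 4 or without unirradiated animal 2 or 3, and 3 without unirradiated animal 1. Without irradiated animal 2 or 3 the count was 9. At 7.4 Gy 2 were called without irradiated animal 1 and 10 without unirradiated animal 4. WDR43 of the small-subunit processome rose by 0.86 (adjusted p = 0.012) and 0.83 (0.0088), and kept its call whichever animal was left out. RPF2, which brings 5S RNA into the large subunit, rose by 1.39 (adjusted p = 0.029) and 1.45 (0.013), and SDAD1, a factor of large-subunit export, by 0.71 (0.023) and 0.72 (0.013). At 6.7 Gy both lost their call without unirradiated animal 2 or 3 or irradiated animal 4, RPF2 also without unirradiated animal 4 and SDAD1 also without unirradiated animal 1, and at 7.4 Gy both lost it without irradiated animal 1. The changes were then at least 0.98 for RPF2 and 0.62 for SDAD1. On first-day arrays alone the medians were 0.72 and 0.43 and 0 genes were called. The medians of day 7, 0.08 and 0.04, and those of day 12, -0.08 and -0.04, were near 0, with 0 called.

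Translation factors and other mRNAs with terminal oligopyrimidine tracts had smaller changes. Of 47 listed 37 were tested, with medians of 0.24 and 0.16 on day 4, 0.09 and 0.10 on day 7 and -0.01 and -0.06 on day 12. EIF3G, a subunit of the initiation factor that holds the small subunit, rose by 0.53 (adjusted p = 0.023) and 0.58 (0.0077) on day 4, and EIF4A1, the cap-complex helicase, by 0.73 after 7.4-Gy TBI (0.023). EIF3G lost its call at 6.7 Gy without unirradiated animal 1 (0.48, adjusted p = 0.069) or irradiated animal 4 (0.43, adjusted p = 0.065). EIF4A1 lost its call without unirradiated animal 2 or 3 or irradiated animal 1 or 3 (adjusted p 0.051 to 0.082). On first-day arrays alone 0 of the 37 were called, with adjusted p = 0.083 and 0.11 for EIF3G and 0.18 for EIF4A1 at 7.4 Gy. The elongation factors EEF1A1 (0.02 and -0.07) and EEF2 (-0.01 and -0.03), and FAU (-0.07 and -0.23), which encodes RPS30 fused to a ubiquitin-like protein, were not called on day 4. All 63 listed mitochondrial ribosomal protein genes were tested, with 61 and 53 higher on day 4 (medians 0.28 and 0.13) and 60 and 54 on day 7 (0.20 and 0.19). Among them MRPL55 rose by 0.56 after 6.7-Gy TBI (adjusted p = 0.021) and MRPS36 fell by 0.67 after 7.4-Gy TBI (adjusted p = 0.021), both on day 4. Of all probes 2.61% and 6.65% were called on day 4 in either direction, so such single calls do not set either list apart. With scanning day as a covariate 1 and 2 of the 37 and 1 and 0 of the 63 were called on day 4. MRPL55 was not called without unirradiated animal 1, 2 or 3 or irradiated animal 4, nor MRPS36 without unirradiated animal 1 or irradiated animal 1 or with scanning day as a covariate (-0.61, adjusted p = 0.055). On first-day arrays alone neither was called (adjusted p = 0.092 and 0.063). Without animal 4 of day 4 following 6.7-Gy TBI the medians there were 0.16 for the translation factors and 0.12 for the mitochondrial genes, with 0 called in either list. On day 4 following 7.4-Gy TBI the median of the mitochondrial genes was 0.07 with 47 higher without unirradiated animal 2, and 0.08 with 39 higher without irradiated animal 3.

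**Figure D5:**
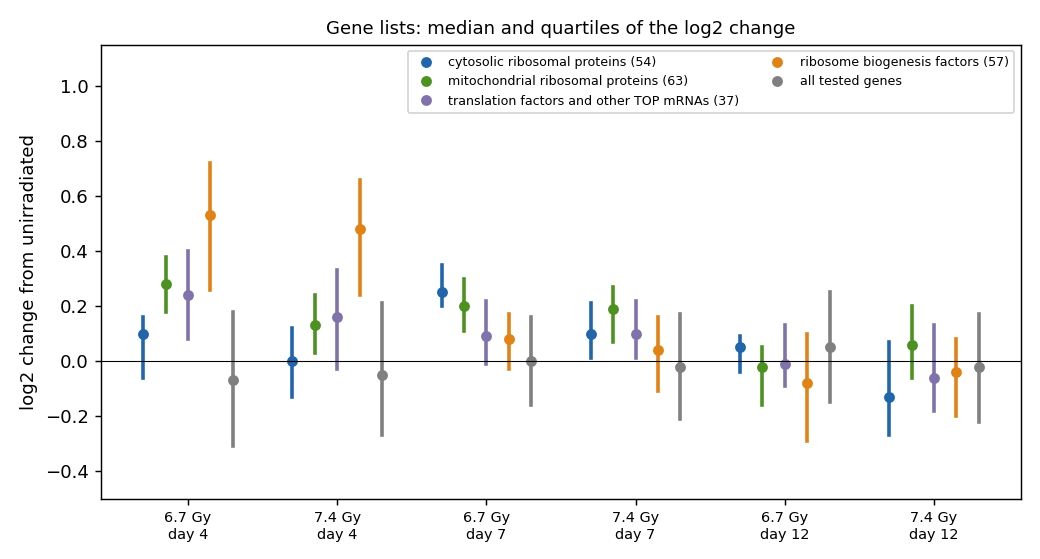
Log2 change against the 4 unirradiated animals for the ribosomal protein genes, ribosome biogenesis genes, translation factors and mitochondrial ribosomal protein genes in the 6 irradiated groups, as the median and the interquartile range over the genes of each list. The biogenesis genes lie highest on day 4, at medians of 0.53 and 0.48, and the median of the ribosomal protein genes is 0.25 on day 7 following 6.7-Gy TBI.

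Marker levels of the cell types of the wall differed between the groups as well, and the part of cell types in the results above was not tested. Summed over a marker list and set to a control mean of 1, crypt proliferation markers (8 of 10 tested) were at 0.939 to 1.11 in unirradiated ileum. They were at 1.01 to 2.5 on day 4 following 6.7-Gy TBI, 1.04 to 1.56 after 7.4-Gy TBI, 1.29 to 1.7 and 1.26 to 1.92 on day 7, and 0.914 to 0.995 and 1.12 to 1.35 on day 12. The animals of day 7, and those of day 12 following 7.4-Gy TBI, lay above all controls. T cell markers (8 of 10) were at 0.783 to 1.25 in the controls and at 0.554 to 0.685 and 0.441 to 0.628 on day 7, without overlap, and at 0.63 to 0.687 on day 12 following 6.7-Gy TBI, also below all controls. B cell markers (4 of 10) were at 0.554 to 1.8 in the controls and 0.396 to 0.831 on day 7 following 6.7-Gy TBI, which overlapped, but at 0.334 to 0.551 on day 4 and 0.455 to 0.529 on day 12 following 7.4-Gy TBI, which did not. Goblet and Paneth cell markers (5 of 10) were at 0.911 to 1.1 in the controls and below them, at 0.348 to 0.804, on day 4 following 6.7-Gy TBI. A sum follows the brightest genes of a list. By the median deviation of the list these animals overlapped the controls (-1.26 to -0.01 against -0.22 to 0.25). Macrophage markers (5 of 10) were at 0.906 to 1.21 in the controls and above them, at 1.33 to 1.57 on day 4 following 7.4-Gy TBI and at 1.22 to 1.27 on day 12 following 6.7-Gy TBI. By the list median these day 12 animals overlapped the controls (0.11 to 0.34 against -0.12 to 0.25). On day 12 following 7.4-Gy TBI endothelial markers (6 of 8) were at 0.635 to 0.738 against 0.783 to 1.3 in the controls, and plasma cell markers (7 of 9) at 0.48 to 0.495 against 0.563 to 2.04, both without overlap. Enterocyte markers (6 of 10, without ALPI or SI) were at 0.533 to 1.45 in the controls and 0.692 to 0.764 on day 7 following 6.7-Gy TBI. Unirradiated animal 1, the lowest control for the ribosomal protein genes, had smooth muscle markers (6 of 10) at 0.251, the lower end of a control range up to 1.32. No marker with a probe was below background on all arrays.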

How the data were processed

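Ileum of 24 animals was measured on 24 one-colour Agilent rhesus arrays, 1 sample per array, grouped by the dose and day in the labels. The authors deposited scanner intensity, in which Feature Extraction 11.0.1.1 had subtracted background, and a log2 table, in which the authors had set each array to its 75th percentile and centred each probe on its median. A separate deposited table of raw signals equalled the scanner signals for all 43553 probes with 1 spot (tolerance 1 in 100000), and 0 columns were unmapped. Methods of the study state that RNA with a RIN (an RNA integrity number) below a set limit failed quality control. The authors' lists of altered genes were not used.

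From the 45220 spots of an array, controls were left out and repeated spots averaged, giving 43603 probes. The main scale was log2 of processed intensity minus the 75th percentile of the array. That percentile was 837.3 to 1330 intensity units, and 72.7% to 88.1% of probes were well above background. The number of arrays limits the precision. The 36110 probes whose spots were all well above background in 1 group or more were tested with limma 3.58.1 (lmFit and eBayes, R 4.3.3, data.table version 1.17.8) in 1 fit of the 7 group means, with Benjamini-Hochberg adjustment over all of them. The fit was tested on simulated data first. Intervals are 95% intervals of the fitted changes.

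Alternatives were quantile normalisation, array medians, normexp (offset 50) on median spot and local background intensities, the deposited table, other filters, the mean of all probes of a gene, blocks for replicate number and slide, slide position, only the groups compared, the methods' t-test and leaving out each animal. Scanning day as a covariate and first-day arrays alone were added after seeing the data. Labels give each array as a separate animal.

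The genes and gene lists were chosen with earlier results of these data known. The genes named were the 3 largest rises and 3 largest falls of each comparison with the controls, up to 10 with the smallest adjusted p in each direction, up to 5 with probes of opposite sign, a fixed list of well-studied members and partners, and up to 3 genes of each other list and direction by adjusted p. RPS13, RPS9 and RPL21 are named outside this rule, after their values were seen, with genes counted in sets of 5 or fewer.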

Additional observations from a re-analysis of the deposited data

Results flagged for a closer look

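In groups of 4 animals, 45 values were examined per group, and 5 of 225 groups held a value whose gap to the nearest other, as a share of the whole range of the group, was above the 95% critical value of Dixon's test. Chance alone flags about 1 group in 20. RPL26 was at 6.46 and RPL7 at 6.34 in unirradiated animal 1, where the other controls were at 6.77 to 6.83 and at 6.57 to 6.61. RPLP1 was at 7.07 in animal 3 of day 4 following 7.4-Gy TBI, below 7.41 to 7.42 in the others. RPS27A was at 6.22 in animal 2 of day 7 following 6.7-Gy TBI, below 6.82 to 6.90. RPL7A was at 6.94 in animal 1 of day 7 following 7.4-Gy TBI, below 7.19 to 7.23.

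No ribosomal protein gene changed differently between days or doses past the test, and some genes picked from the accompanying lists did. Only RPS27L, RPL26L1, MYC, EIF3G, EIF4A1, RPF2, WDR43, EBNA1BP2 and SDAD1 were tried from those lists. They were picked with results of these data known and lay above the controls on day 4. That choice favours a later fall, so they cannot be set against the unpicked ribosomal protein genes. Of all probes, 1.03% and 3.79% were called from day 4 to day 7, lower dose first. From day 4 to day 12 these shares were 7.45% and 3.35%. From day 4 to day 7 following 6.7-Gy TBI the differences were -0.98 for RPS27L (SE 0.19, adjusted p = 0.025), -0.82 for WDR43 (SE 0.17, adjusted p = 0.029) and -0.66 for SDAD1 (SE 0.16, adjusted p = 0.048). After 7.4-Gy TBI they were -0.98 for RPS27L (adjusted p = 0.0096), -0.73 for WDR43 (0.024), -0.82 for EBNA1BP2, a nucleolar assembly factor (SE 0.20, 0.028), and -0.68 for SDAD1 (0.024). From day 4 to day 12 following 6.7-Gy TBI they were -1.20 for RPS27L (adjusted p = 0.012), -0.95 for EIF4A1 (0.022), -1.47 for RPF2 (0.035), -1.02 for WDR43 (0.014), -0.97 for EBNA1BP2 (0.027) and -1.16 for SDAD1 (0.0059). After 7.4-Gy TBI they were -1.36 for RPS27L (adjusted p = 0.0052), -0.95 for WDR43 (0.018), -0.95 for EBNA1BP2 (0.037) and -0.91 for SDAD1 (0.015).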

How the results depend on the processing

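The count of altered ribosomal protein genes was 0 under every alternative run, in all 6 comparisons. The count at an adjusted p under 0.05, 1 on days 4 and 7 and 0 on day 12, changed as follows. On day 4 following 6.7-Gy TBI it was 2 with quantile normalisation (RPL22 and RPL23) and with normexp (RPL12 and RPL22), and on day 4 following 7.4-Gy TBI 2 with quantile normalisation (RPL12 and RPL22). The mean of all probes gave 0 on day 4 and on day 7 following 6.7-Gy TBI, and quantile normalisation and array medians gave 0 on day 7 following 6.7-Gy TBI, where slide as a block gave 2 (RPL22 and RPS2). Slide position as a covariate gave 0 on day 4 at both doses. Fitting only the groups compared, the methods' t-test after Benjamini-Hochberg, and the 16 first-day arrays each gave 0 on days 4 and 7 at both doses. Without adjustment limma gave 4, 2, 21, 7, 2 and 2, in the order of days with the lower dose first. Leaving out 1 animal gave 0 to 1 on day 4 at both doses and on day 7 following 6.7-Gy TBI, 1 to 1 on day 7 following 7.4-Gy TBI and 0 to 0 on day 12; the animals are named with RPL22.

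The median change moved by more than the spread between animals in these cases. On day 4 following 7.4-Gy TBI (0.00) it was 0.15 with quantile normalisation, 0.12 with slide as a block and with scanning day, and -0.38 with slide position. After 6.7-Gy TBI slide position turned the sign, to -0.10, a move within that spread. On day 4 the position term rests on the 6.7-Gy group alone, where position and scanning day coincide, so it cannot be told apart from scanning day or from the animals. On day 7 it was 0.16 with quantile normalisation after 6.7-Gy TBI, and after 7.4-Gy TBI 0.26 with slide, 0.24 with scanning day and 0.21 on first-day arrays. On day 12 following 6.7-Gy TBI (0.05) it was -0.02 with array medians and 0.02 with slide, and after 7.4-Gy TBI (-0.13) 0.01 with quantile normalisation and 0.13 with slide or scanning day. Without 1 animal it ran from 0.00 (without irradiated animal 4; 0.03 without unirradiated animal 1) to 0.16 and from -0.05 to 0.05 on day 4, from 0.19 to 0.28 and from 0.04 (without unirradiated animal 1) to 0.16 on day 7, and from -0.03 (without unirradiated animal 1) to 0.08 and from -0.19 to -0.05 on day 12, lower dose first. The causes were not tested.

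Residuals of same-numbered arrays correlated at -0.26 to 0.23, with 5 of 20 above 0.1. Among the 4 controls, 9 of 20 irradiated arrays were closest to the 1 of their own number. These values do not settle whether replicate numbers pair the animals, and some same-numbered arrays also shared a slide. With the replicate block RPL22 was called in the same 4 comparisons, the count stayed at 0 on day 12, and the median on day 12 following 6.7-Gy TBI was 0.09.

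Over all probes the counts at an adjusted p under 0.05 in the same order, 941, 2403, 162, 353, 56 and 18, became 52, 819, 42, 70, 3 and 0 with only the groups compared and 2, 344, 5, 0, 0 and 1 with the methods' t-test. Day 12 had 2 animals a group, and its standard errors are the largest.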
